A study of Mus musculus with 2 samples.

Results

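Akap12 is 1 of the 31053 genes counted in lung cells taken from mice 6 h after an intravenous injection. It was chosen by its measured values in these files, where its count in general capillary endothelial cells was higher after melanoma cells than after PBS, so its levels and ratios are given here as a description and carry no test. The control library came from 2 pooled wild type C57BL/6 mice given PBS, and the metastatic library from 2 pooled wild type C57BL/6 mice given 200000 B16-F10 cells, a mouse melanoma line, by the same route, the tail vein. Both libraries hold cells sorted for PECAM1, a surface protein of endothelial cells that platelets and some leukocytes also carry, and the mice of a pool cannot be told apart in the files. With 1 library per group there is no replicate, and every interval below is a 95% interval that covers counting error only. Intervals of levels, means and ratios take each UMI as independent and leave out the spread of a gene over barcodes. The unit counted is the unique molecular identifier (UMI), 1 per captured mRNA molecule.

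Barcodes were called cells at 1000 to 5000 detected genes and under 20% mitochondrial UMIs, which left 7134 control and 6466 metastatic barcodes. Endothelial classes were set by marker genes alone, with no clustering. A barcode was an aerocyte, the wide capillary cell of gas exchange, with 2 or more of Ednrb, Fibin and Tbx2 (1364 and 1086 barcodes). It was vein with 2 or more of Slc6a2, Car8 and Bst1 (247 and 304 barcodes) and artery with 2 or more of Gja5, Bmx and Fbln5 (63 and 59 barcodes). It was general capillary (gCap), the capillary cell that serves as progenitor and regulator of vascular tone, with 2 or more of Gpihbp1, Aplnr, Kit and Lpl and none of the other rules met (5020 and 4519 barcodes). A further 46 and 32 barcodes met more than 1 of the aerocyte, vein and artery rules, and 394 and 466 met none.

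AKAP12, also named gravin or SSeCKS, is a large scaffold protein of the A-kinase anchoring protein family. It holds protein kinase A, protein kinase C, calmodulin and membrane receptors together near the plasma membrane and binds actin-linked and SRC-linked signaling proteins, so it can place cAMP signals beside the cytoskeleton. In endothelium it is known for barrier function, and in tumor cells for restraint of motility and metastasis. The gene lies on chromosome 10 of the mouse mm10 build (GRCm38) at chr10:4266380-4359470 on the plus strand, a span of 93091 bases that no other annotated gene overlaps. GENCODE M21 lists 3 transcripts, 2 of them coding. The coding transcripts begin at different first exons and differ in their first coding bases, which are shown because the counts do not separate these forms of the protein. The first 60 coding bases follow with the start codon in capitals, at chr10:4266519-4266578 in exon 1 of Akap12-201 and at chr10:4353192-4353251 in exon 2 of Akap12-202, both on the plus strand.
Akap12-201: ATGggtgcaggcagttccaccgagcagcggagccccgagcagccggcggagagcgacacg
Akap12-202: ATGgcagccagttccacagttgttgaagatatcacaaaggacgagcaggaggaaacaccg
The glycine codon after the start codon of Akap12-201 is the residue that carries the myristoyl group of the long form, a lipid that ties the protein to membranes. The coding length is 5052 bases in Akap12-201 and 4737 bases in Akap12-202. All 3 transcripts share the 4798-base exon at chr10:4353142-4357939 and the last exon at chr10:4358478-4359470, and the UMIs were read near the transcript end, so every level below is the sum over the transcripts.

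The called barcodes held a median of 6272.5 (control) and 6526.5 (metastatic) UMIs, and 7004 and 6334 of them carried 2 or more of the endothelial markers Cdh5, Pecam1, Tie1, Kdr, Egfl7 and Cldn5. The libraries were not fully separate: 16 barcodes were called in both, and 3258 control and 4148 metastatic barcodes had 50 or more UMIs in the other library. The UMIs of called control barcodes in the other library came to 1.02% of their own UMIs, and for metastatic barcodes this was 1.14%. Values without those barcodes are given beside the main result. Markers that the rules did not use had higher summed levels in their own class than in gCap for aerocytes (4554 against 843 CPM in control, where CPM is UMIs per 1000000 UMIs) and veins (9706 against 3103). For arteries the distance was smaller (1612 against 1110), and artery barcodes carried the vein markers at 8124 CPM. The gCap markers outside the rules were at 9106 CPM in gCap and 8526 CPM in vein, so they hardly separate those classes either.

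In the control library Akap12 was at a like level in all 4 classes, and in the metastatic library it was higher in capillary cells and not in vein. Control gCap barcodes held 7406 Akap12 UMIs, which was 231 CPM (225 to 236), and metastatic gCap barcodes held 15421, which was 509 CPM (501 to 517). The ratio was 2.21-fold, or 1.14 on the log2 scale (1.10 to 1.18). Aerocytes went from 258 CPM (249 to 268) to 400 CPM (387 to 413), a log2 ratio of 0.63 (0.56 to 0.70). The 2 remaining classes were small. Artery barcodes held 116 and 167 Akap12 UMIs, at 235 CPM (194 to 282) and 343 CPM (293 to 400), a log2 ratio of 0.55 (0.20 to 0.90). Vein barcodes were at 253 CPM (232 to 275) and 231 CPM (213 to 250), a log2 ratio of -0.13 whose interval held 0 (-0.30 to 0.04).

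In control the order was aerocyte, vein, artery and gCap. Each neighbouring pair in that order had overlapping intervals, and only the 2 ends, aerocyte and gCap, did not overlap. In the metastatic library the order was gCap, aerocyte, artery and vein, and the intervals overlapped only between aerocyte and artery. These intervals leave out the spread of Akap12 over barcodes, so overlap or its lack is not a test. The gCap log2 ratio exceeded that of aerocytes by 0.51 (0.43 to 0.59), and the vein ratio was lower than that of gCap, a difference of -1.27 (-1.44 to -1.10). The artery value turned when every barcode was brought to 2000 UMIs: its log2 ratio was then -0.10, on 32 control and 28 metastatic Akap12 UMIs. At that depth the ratio was 1.08 in gCap, 0.63 in aerocytes and -0.03 in vein. The aerocyte value turned to -0.13 when free RNA, estimated as 68.2% of all control and 26.1% of all metastatic aerocyte UMIs, was subtracted at the Akap12 level of barcodes with 11 to 50 UMIs. Both aerocyte levels were higher after that step, at 542 and 495 CPM. The estimate passed 100% of all UMIs in control gCap and in metastatic vein, so it gave no value there. No true share can pass 100%, so the aerocyte estimate and the value after subtraction are uncertain as well.

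**Figure D1:**
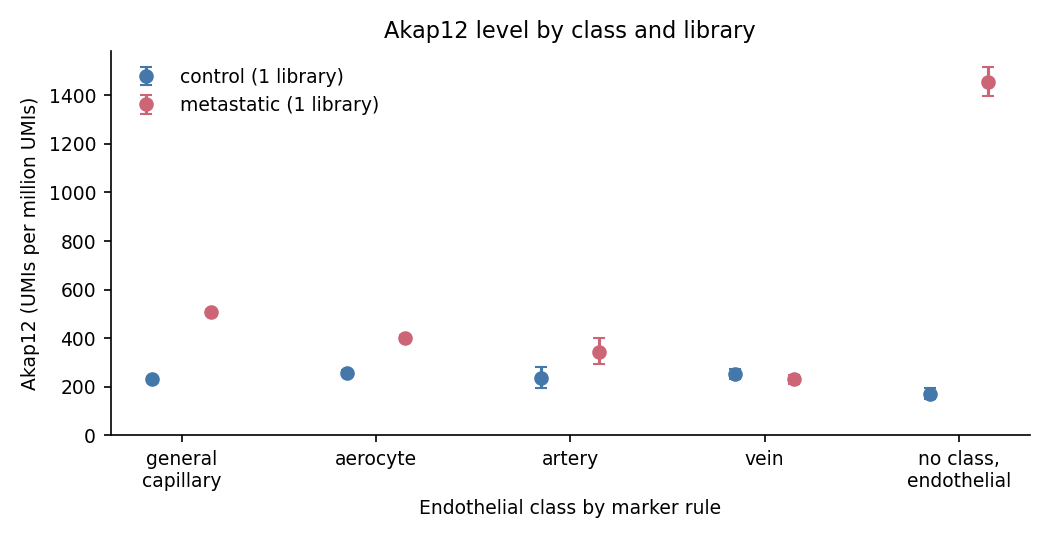
Akap12 level (CPM, y axis) in 4 marker-defined endothelial classes and in barcodes with endothelial markers that met no class rule (x axis), control in blue and metastatic in red, 1 library each; bars are exact Poisson 95% intervals. Metastatic points are at 509 in general capillary, 400 in aerocyte and 231 in vein barcodes, against 231, 258 and 253 in control, and the highest point is 1456 in metastatic barcodes of no class.

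Barcodes that carried endothelial markers but met no class rule had the highest Akap12 level of the metastatic library. There were 277 of them in control, at 170 CPM (149 to 194), and 350 in the metastatic library, at 1456 CPM (1398 to 1515), an 8.56-fold ratio (7.46 to 9.86). Their median depth was 3679 and 3655 UMIs, below that of gCap (5950.5 and 6275). Barcodes of no class with under 2 endothelial markers were at 22.5 CPM (13.3 to 35.5) and 35.1 CPM (23.5 to 50.5). Over all barcodes with endothelial markers, whatever their class, the levels were 237 and 503 CPM, a log2 ratio of 1.09 (1.05 to 1.12), close to the gCap value.

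Cells of other kinds in the sort carried little Akap12. Lymphoid barcodes, defined by B, T or NK cell markers, stand for background, since free RNA gives a few UMIs to cells that do not express a gene. They were at 25.9 CPM (9.51 to 56.4; 44 barcodes) in control and 20.3 CPM (6.59 to 47.4; 47 barcodes) in the metastatic library. An Akap12 UMI was found in 11.4% and 8.51% of them at median depths of 4743.5 and 4606 UMIs, against 58.1% and 68.5% of gCap barcodes. Barcodes with monocyte or macrophage markers and under 2 endothelial markers were at 15.0 and 14.3 CPM. Platelet barcodes were at 43.4 and 49.3 CPM, and fibroblast barcodes, of which there were 6 and 13, at 73.4 and 99.7 CPM. All of these lay below every endothelial class.

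The 2.21-fold ratio in gCap was large among genes of these libraries. Of 6368 genes with at least 100 UMIs and a mean of at least 20 CPM in gCap barcodes, the median log2 ratio was 0.02 and the central 95% lay between -0.41 and 0.49. At least 2-fold higher were 18 genes (0.283%), and at least 2-fold lower were 7 (0.11%). Akap12 ranked 8 from the top. Among the 7 genes above it were the metallothionein Mt1 (25.9 and 78.2 CPM, log2 ratio 1.59), the NF-kB cofactor Bcl3 (1.44), the chemokine Cxcl10 (1.38), Arl4c (1.35), the growth factor Pdgfa (1.31) and Atp8b1 (1.22), each of which was below 100 CPM in both libraries. Just below it were Tmtc2 (1.10), the growth factor Hgf (1.09) and the transcription factor Sox4 (1.07). In aerocytes Akap12 ranked 64 of 6460 genes, in artery 105 of 1827 and in vein 4500 of 6257.

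**Figure D2:**
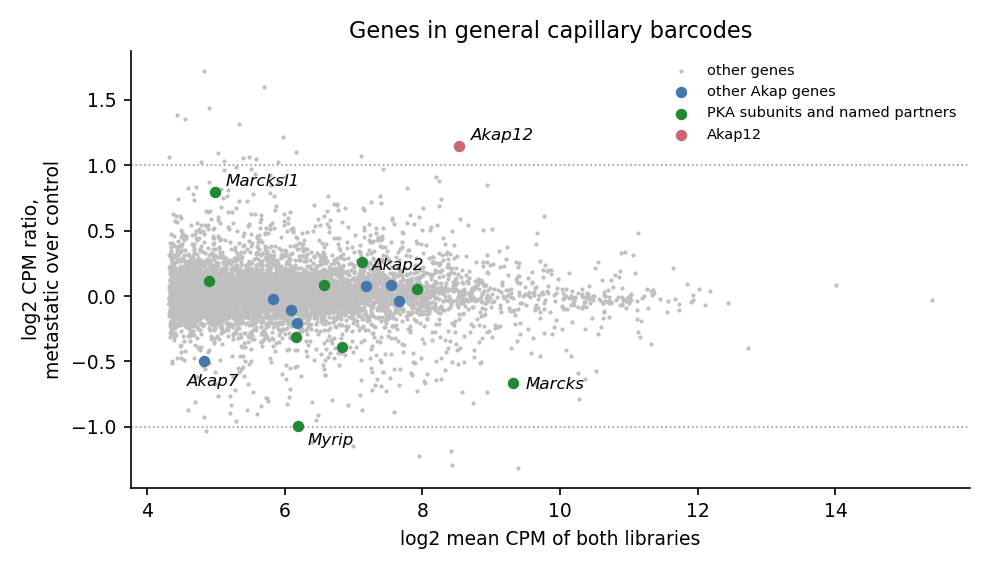
Log2 CPM ratio of metastatic over control (y axis) against log2 mean CPM of both libraries (x axis) for 6368 genes in general capillary barcodes, 1 point per gene; dotted lines mark 2-fold. Akap12 (red) is at 1.14, the other Akap genes (blue) lie between -0.50 and 0.08, and Myrip (green) is at -0.99.

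The higher level in metastatic gCap was carried unevenly by the barcodes. To compare barcodes at 1 depth, each was thinned at random to 2000 UMIs, which left out 73 control and 58 metastatic gCap barcodes with fewer. At that depth 30.7% (29.5 to 32.1; 1521 of 4947) of control and 40.6% (39.2 to 42.1; 1811 of 4461) of metastatic gCap barcodes held an Akap12 UMI, and the median was 0 in both. The mean went from 0.450 to 0.954 UMIs per barcode, the 99th percentile from 4 to 14, and the highest barcode from 27 to 45. Among barcodes with any Akap12 UMI the mean was 1.46 in control and 2.35 in the metastatic library. The share of barcodes with the gene differed by 9.85 percentage points.

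Barcodes with 5 or more Akap12 UMIs of 2000 are called Akap12-high below, a range and not a cell type. They were 20 of 4947 gCap barcodes in control (0.404%; 0.247 to 0.624) and 143 of 4461 in the metastatic library (3.21%; 2.71 to 3.77). With 10 or more there were 4 and 68. Near the limit, over all called barcodes, 45 control and 77 metastatic barcodes had exactly 4 and 15 and 29 had exactly 5. Aerocytes had 7 of 1354 and 22 of 1074 such barcodes, vein 0 of 246 and 1 of 303, and artery 0 of 63 and 0 of 59. At 3 counts of the total, 0 of 246 allows a share of up to 1.22% in control vein, and 0 of 63 and 0 of 59 allow up to 4.76% and 5.08% in artery, which is above the metastatic gCap share. Barcodes with endothelial markers but no class had 2 of 256 and 47 of 318, which was 14.8% (11.1 to 19.2) of the latter.

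The 5% of gCap barcodes with the most Akap12 held 34.0% of its UMIs in control and 48.3% in the metastatic library. Without them the log2 ratio was 0.73, with means of 0.313 and 0.519 UMIs per barcode. The variance of the thinned count divided by its mean, which is 1 for Poisson counting, was 1.89 in control and 7.48 in the metastatic library. Among genes detected in at least 10% of the barcodes this ranked 70 of 3388 in control and 9 of 3437 in the metastatic library, where the median gene was at 1.07. The ratio was above 0 at every depth: in gCap barcodes of under 4000, 4000 to 6000, 6000 to 8000 and at least 8000 UMIs the log2 ratio was 0.96, 0.88, 1.05 and 1.31.

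**Figure D3:**
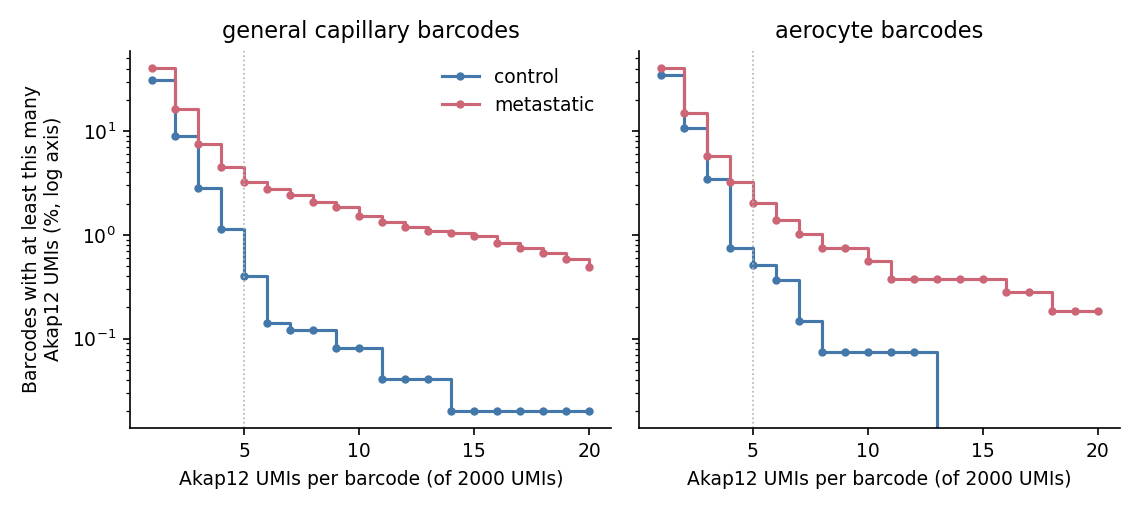
Share of general capillary (left) and aerocyte (right) barcodes with at least a given number of Akap12 UMIs (y axis, percent on a log axis; x axis, Akap12 UMIs after thinning to 2000 UMIs, the last point standing for 20 or more), control in blue and metastatic in red. The dotted line is at 5 UMIs, reached by 0.404% of control and 3.21% of metastatic general capillary barcodes.

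The Akap12-high barcodes of the metastatic library carried endothelial markers, had fewer UMIs of the gCap markers and more of several cytoskeletal and growth factor genes. The values that follow are means of UMIs per barcode at 2000 UMIs in the metastatic library, for 213 barcodes with 5 or more Akap12 UMIs and 3740 with 0. Both groups were limited to barcodes with 2 or more endothelial markers, which 6231 of the 6359 thinned barcodes held. Over all thinned barcodes 213 were Akap12-high as well, so the limit left out none of them. Because the groups were formed on Akap12 itself, within 1 library, they are a description. Cdh5, the cadherin of endothelial junctions, was at 3.74 against 3.09, and Cldn5, the claudin of tight junctions, at 6.45 against 4.11. Pecam1, which encodes the surface protein of the sort, was lower at 1.72 against 2.15, a log2 ratio of -0.32 (-0.47 to -0.17). The gCap markers were lower: Gpihbp1, which anchors lipoprotein lipase, was at 1.76 against 2.57, the receptor Kit at 0.615 against 1.11, and lipoprotein lipase itself, Lpl, at 0.991 against 1.63. Of the Akap12-high barcodes 22.1% met no class rule, against 5.19% of those with 0, at median depths of 7130 and 6517.5 UMIs. Barcodes of no class hold under 2 of the gCap rule markers by definition, so this share and the lower gCap markers are not separate results.

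Several genes differed many times over between these groups. Mt1 was at 2.43 UMIs per barcode against 0.0660, a log2 ratio of 5.20 (4.98 to 5.43). Inhbb, which encodes an activin subunit, was at 0.737 against 0.0257 (log2 ratio 4.84), Pdgfa at 1.48 against 0.0586 (4.66), and Hbegf, a ligand of the EGF receptor, at 1.85 against 0.0872 (4.41). Actb, cytoplasmic actin, was at 23.9 against 4.56 (2.39), and Rhoc, a small GTPase of actomyosin contraction, at 4.43 against 0.514 (3.11). Lower were the flow-responsive transcription factor Klf2, at 1.35 against 4.19 (-1.63), the caveolar protein Cavin2, at 1.26 against 4.20 (-1.73), and the prostaglandin-degrading enzyme Hpgd, at 3.49 against 11.5 (-1.72).

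Of 6 smooth muscle and pericyte markers Tagln, an actin-binding protein, was at 0.291 UMIs per Akap12-high barcode (62 UMIs) against 0.0160, a log2 ratio of 4.18 (3.65 to 4.72). The other 5 (Acta2, Cspg4, Notch3, Myh11 and Pdgfrb) had 1 to 4 UMIs each in all 213 barcodes. The summed melanoma markers were at 0 UMIs in those 213 barcodes. In control, where only 29 barcodes were Akap12-high, Tagln had 0 UMIs and Inhbb 8, which was 0.276 per barcode against 0.00611. Some differences had the same direction in control at a smaller size. The log2 ratio was 0.67 (0.45 to 0.88) for Actb and 0.85 (0.21 to 1.43) for Rhoc. It was -0.86 (-1.30 to -0.44) for Gpihbp1, -0.54 (-0.86 to -0.23) for Klf2 and -0.33 (-0.49 to -0.17) for Hpgd. Control intervals held 0 for Cdh5, Cldn5, Pecam1, Kit, Lpl, Mt1, Pdgfa, Hbegf and Cavin2.

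Within gCap barcodes, Akap12 was higher in those that carried Inhbb in both libraries, and in those that carried Mt1, Pdgfa, Hbegf or Bcl3 in the metastatic library. The difference between libraries was not tested. These splits draw on the same barcodes as the Akap12-high comparison above and the r values below, so the 3 are not separate results. At 2000 UMIs, the 162 metastatic gCap barcodes with an Inhbb UMI held a mean of 6.06 Akap12 UMIs (5.68 to 6.45) and the 4299 without held 0.762 (0.736 to 0.788). In control the means were 1.42 (1.07 to 1.85; 38 barcodes) and 0.443. With an Mt1 UMI the metastatic mean was 4.62 against 0.777 without, and in control 0.400 against 0.451. Pdgfa split the metastatic barcodes at 2.64 against 0.834, Hbegf at 2.43 against 0.785 and Bcl3 at 1.94 against 0.882. In control the same splits gave 0.419 against 0.452, 0.512 against 0.446 and 0.377 against 0.453, with overlapping intervals in each.

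Metastatic barcodes with more NF-kB, rCap or heat shock genes detected had a higher mean of Akap12, which was not so for interferon genes. With 3 or more of 16 NF-kB targets detected, the metastatic mean was 1.59 Akap12 UMIs (1.52 to 1.66), against 0.519 (0.435 to 0.615) with none. In control it was 0.442 against 0.523. With 3 or more of 7 genes that mark the reactive capillary cells described in the study (rCap), a list that the study chose on these same samples, the mean was 1.83 against 0.756 with none, and in control 0.388 against 0.477. The share of metastatic barcodes with an Akap12 UMI was 42.0%, 37.4%, 40.9% and 45.7% with 0, 1, 2 and 3 or more rCap genes. Akap12-high barcodes were 1.72% of those with none and 9.94% of those with 3 or more. These 7 genes were not alike. Between the metastatic Akap12-high barcodes and those with 0, Adamts9 (log2 ratio 2.54), Bcl3 (2.19) and Osmr (0.93) were higher, as Inhbb was. The log2 ratios of Scarb1 (0.16), the kinase Pim3 (0.09) and Tmem252 (-0.09) had intervals that held 0. For 10 heat shock genes the mean was 1.23 against 0.521, and in control 0.454 against 0.470. For 8 interferon genes it was 0.989 (0.889 to 1.10) against 1.03 (0.995 to 1.08), and for 9 hypoxia genes it was 1.13 (0.974 to 1.31) against 0.909 (0.863 to 0.957). Metastatic barcodes with the hypoxia-inducible growth factor Vegfa held a mean of 0.927 against 0.970 without it, while 44.8% and 38.2% of them held an Akap12 UMI. In control 31.6% and 30.5% did.

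Class markers ran the other way in the metastatic library. Metastatic gCap barcodes with 0, 1, 2 and 3 or more of the 4 rule genes detected at 2000 UMIs held 2.24, 1.74, 0.984 and 0.702 Akap12 UMIs, and control barcodes 0.261, 0.527, 0.454 and 0.438. Efnb2, the ephrin of arterial endothelium, went with Akap12 in control, where barcodes with an Efnb2 UMI held 0.550 Akap12 UMIs (0.521 to 0.580) and those without 0.348 (0.325 to 0.372). In the metastatic library these means were 0.981 and 0.926, with overlapping intervals. The share of barcodes with an Akap12 UMI was higher with Efnb2 in both libraries. It was 35.7% with and 25.6% without Efnb2 in control, and 44.6% and 36.4% in the metastatic library. Efnb2 is also 1 of 5 arterial markers that the class rule did not use. With 0 and with 3 or more of them, the mean was 0.362 and 0.555 in control. In the metastatic library it was 1.51 and 0.726, an opposite order, and 7.02% and 1.92% of these barcodes were Akap12-high. The share with an Akap12 UMI had the same order in both libraries, at 26.3% and 34.9% in control and 37.9% and 41.6% in the metastatic library.

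**Figure D4:**
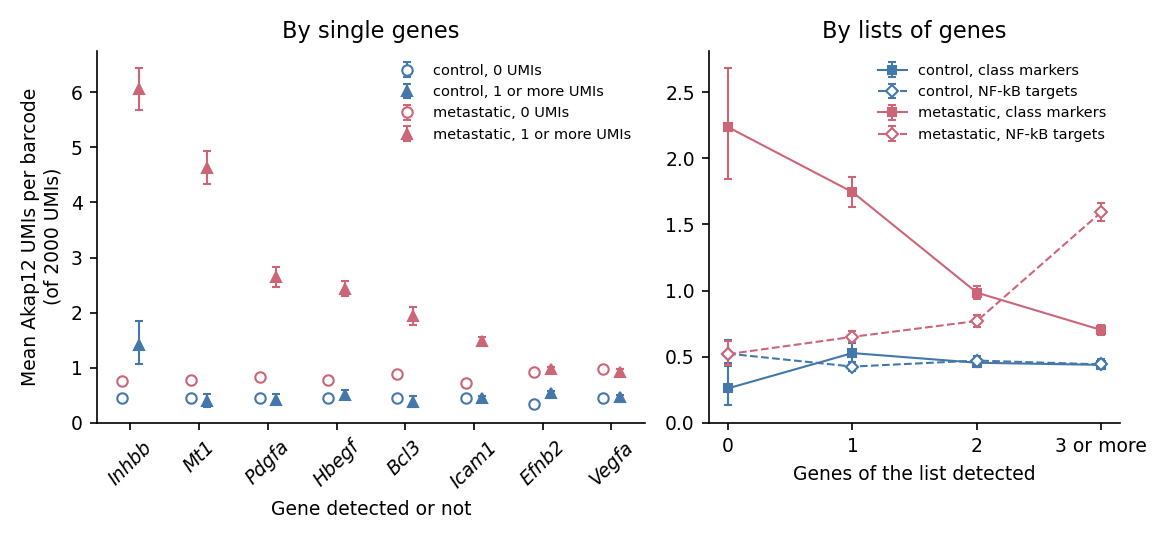
Mean Akap12 UMIs per general capillary barcode after thinning to 2000 UMIs (y axis), left for barcodes with 0 UMIs (open circles) or 1 or more UMIs (triangles) of a gene, right by the number of class markers (squares) or NF-kB targets (diamonds) detected; control in blue, metastatic in red, bars are exact Poisson 95% intervals. Metastatic barcodes with Inhbb reach 6.06 and with Mt1 4.62, while control means stay between 0.261 and 1.42.

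Platelet markers and red cell globins differed in share between the libraries, and smooth muscle and pericyte markers hardly did. Akap12 was also higher in metastatic gCap barcodes with under 2 markers of any 1 of these lists. The part of other cell types in the level was not tested. Of gCap barcodes 6.61% in control and 10.6% in the metastatic library held 2 or more of 4 platelet markers. Akap12 was at 231 CPM in such control barcodes and 786 CPM in such metastatic ones, and in the barcodes with fewer it was at 231 and 472 CPM. The few gCap barcodes with 2 or more of the 6 smooth muscle and pericyte markers (44 and 45) were at 201 and 1172 CPM, and those with fewer at 231 and 500 CPM. Red cell globins, which differed between libraries (67.1% and 41.6% of gCap barcodes with 2 or more), were set aside in the same way, and barcodes with fewer had Akap12 at 229 and 496 CPM. When barcodes with 50 or more UMIs in the other library were left out, the gCap levels were 219 and 390 CPM, a log2 ratio of 0.83 (0.76 to 0.91), and the aerocyte ratio was 0.29. The part of shared barcodes in the result was not tested.

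Few genes correlated with Akap12 over single gCap barcodes, and the highest of each library were mostly not shared. Pearson's r was taken on log counts per 10000 UMIs over 5020 control and 4519 metastatic barcodes, for genes detected in at least 10% of them. These barcodes share a library, and r of Akap12 with log depth was 0.13 and 0.15, so r values of this size are descriptions and carry no p. In control 35 of 6649 genes (0.526%) were at 0.1 or more and 4 (0.0602%) at -0.1 or below. In the metastatic library 262 of 6822 genes (3.84%) were at 0.1 or more and 58 (0.85%) at -0.1 or below. Only 10 of 6574 genes measured in both were at 0.1 or more in both, and 7 of the 50 highest of each library were shared.

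The 10 highest genes in control were Efnb2 (r 0.227), the spectrin Sptbn1 (0.155), the BMP receptor Bmpr2 (0.154), Sema3g, Abi3bp, the phosphatase Ptprb of endothelial junctions, Clic4, the BMP inhibitor Smad6, the Kit ligand Kitl and the actomyosin kinase Cdc42bpa (0.130). Of these 10 only Efnb2 (0.150), Clic4 (0.241) and Kitl (0.183) were at 0.1 or more in the metastatic library, and Ptprb was at -0.09 there. The lowest 5 in control were Plpp1 (-0.13), the cyclooxygenase Ptgs1 (-0.11), Itm2b (-0.10), the kinase Pim3 (-0.10) and Tmsb10 (-0.10).

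The 10 highest genes in the metastatic library were Rhoc (r 0.289), the repressor Bcl6b (0.283), the urokinase receptor Plaur (0.282), the nonmuscle myosin Myh9 (0.253), Actb (0.247), the adhesion molecule Mcam (0.247), the actin linker Msn (0.244), the chemokine Cxcl16, the intermediate filament Nes and Clic4 (0.241). Of these only Myh9 (0.110) and Clic4 (0.142) were at 0.1 or more in control, where Actb was at -0.02. The lowest 5 were Itm2b (-0.28), Hpgd (-0.25), the adrenomedullin receptor partner Ramp2 (-0.23), Klf2 (-0.22) and Cavin2 (-0.22). Genes of like r had unlike ratios between libraries: Plaur was at 45.1 and 50.8 CPM and Nes at 212 and 219 CPM, while Cxcl16 was at 28.9 and 60.3 CPM. Thinned to 2000 UMIs, 1 control gene (Efnb2, 0.125) and 51 metastatic genes were at 0.1 or more, and all 10 of the genes named for each library were among its 50 highest.

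**Figure D5:**
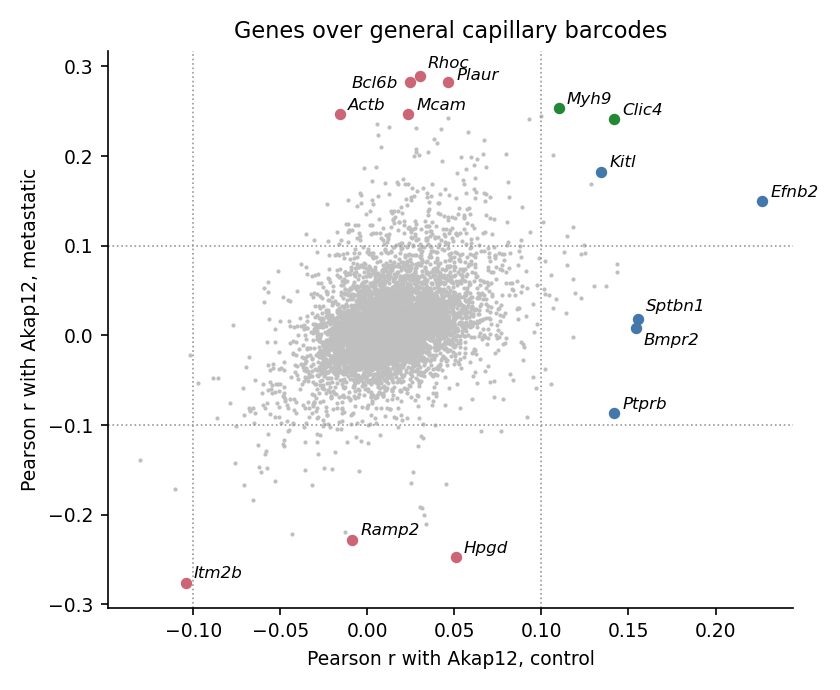
Pearson r with Akap12 over general capillary barcodes in the metastatic library (y axis) against control (x axis), 1 point per gene measured in both (6574 genes); dotted lines mark 0.1 and -0.1. Efnb2 is highest in control (0.227), Rhoc highest in metastatic (0.289), and Clic4 and Myh9 (green) pass 0.1 in both.

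None of the other A-kinase anchoring genes that passed the filter had a ratio as far from 1 as that of Akap12 in gCap. Of 14 other genes with an Akap name 7 passed the filter, and 0 were past 2-fold in either direction. Over all tested genes 0.283% were at least 2-fold higher and 0.11% at least 2-fold lower, so a count of 0 says little for lists this short. The same holds for the anchor, partner and cAMP lists that follow. The median log2 ratio of the Akap genes was -0.04, against 0.02 for all genes tested. Akap9, which anchors kinase A at the Golgi and centrosome, was highest (181 and 191 CPM, log2 ratio 0.08). Akap7, a small membrane anchor, was lowest (33.3 and 23.5 CPM, -0.50). Akap2, another actin-linked anchor, was level at 141 and 149 CPM (0.07) and still went with Akap12 over metastatic barcodes (r 0.164, and 0.03 in control). In the Akap12-high barcodes Akap2 was at 1.00 UMIs per barcode against 0.239.

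Of 13 anchors without the name 8 passed, and 0 were past 2-fold in gCap. Myrip, which links kinase A to secretory granules, was lowest at 97.0 and 48.8 CPM (log2 ratio -0.99, -1.08 to -0.90), and Ezr, the membrane linker ezrin, was highest (0.33). Among aerocytes, where 13 of 6460 genes (0.201%) were at least 2-fold higher and 6 (0.0929%) at least 2-fold lower, Myrip was one of the 6 lower genes (39.0 and 19.3 CPM, -1.02).

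The proteins that AKAP12 gathers were mostly level. Of 9 kinase A subunit and inhibitor genes 5 passed, with a median log2 ratio of 0.05. The regulatory subunit Prkar1a was at 239 and 248 CPM (0.05), the catalytic subunits Prkaca at 28.8 and 31.2 CPM (0.12) and Prkacb at 129 and 98.5 CPM (-0.39), the lowest. Of 9 protein kinase C genes 2 passed, Prkce (-0.05) and Prkch (-0.26). Of 13 other partners 10 passed, with 0 past 2-fold and a median of 0.12. The calmodulin gene Calm2 was highest at 316 and 387 CPM (0.29). The cyclin Ccnd1, which AKAP12 holds in the cytoplasm, was at 127 and 152 CPM (0.26) with an r of 0.205 in the metastatic library and 0.03 in control.

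Of 42 genes that make, break down or sense cAMP, 17 passed, 0 were past 2-fold and the median was 0.07. The receptor Calcrl was highest (0.32). Below the filter, the adenosine receptor Adora2a went from 84 to 277 UMIs (2.62 and 9.14 CPM, log2 ratio 1.81). Of 14 genes known to respond to cAMP 8 passed, with a median of 0.11, between Per1, a clock gene that glucocorticoids also induce (63.5 and 34.0 CPM, -0.90), and the small GTPase Gem (24.4 and 42.9 CPM, 0.82). Of the MARCKS-like proteins, other substrates of kinase C at the membrane, Marcks was at 785 and 496 CPM (-0.66) and Marcksl1 at 23.3 and 40.4 CPM (0.80), opposite directions within 1 pair.

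Other programs in gCap are given beside the 0.283% of all tested genes that were at least 2-fold higher and the 0.11% that were at least 2-fold lower. Of the 7 rCap genes 6 passed and 1, Bcl3, was at least 2-fold higher, with a median of 0.33. Inhbb fell below the filter (5.20 and 32.4 CPM, log2 ratio 2.64). Of 7 growth factor genes 4 passed and 2 were at least 2-fold higher, Pdgfa and Hbegf (39.3 and 80.1 CPM, 1.03), and Pdgfb was lowest at 0.48. Of 16 NF-kB targets 6 passed, with 0 past 2-fold and a median of 0.20, from Nfkbia (-0.08) to Relb (0.87). Glucocorticoid-responsive genes had a median of -0.70 over 9 of 10 genes, with Zbtb16 2-fold lower (488 and 200 CPM, -1.29) and Mt1 2-fold higher. Of 10 heat shock genes 9 passed and Hspa1b was 2-fold higher (31.5 and 65.0 CPM, 1.05), although its reads cannot be fully told from those of its near-identical copy Hspa1a (0.91). All 10 junction genes passed with 0 past 2-fold, between Tjp1 (-0.10) and F11r (0.43). The lists for interferon (median 0.35), hypoxia (0.25) and immediate early genes (-0.02) had 0 genes past 2-fold.

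Over the 8 points formed by 4 classes and 2 libraries, the genes whose log2 levels were most like Akap12 among 6474 were Parp12 (r 0.93), an interferon-linked ADP-ribosyltransferase, the chromatin subunit Brd9 (0.90), Cyb5a (0.89), the splicing protein Snrpb (0.88) and Bcl10 (0.87), a signal carrier to NF-kB. The points share 2 libraries, and these genes spanned less: Parp12 went from 44.0 to 61.3 CPM in gCap and from 40.8 to 41.9 CPM in vein. The protein-coding genes nearest to Akap12 did not share its ratio in gCap. Zbtb2, which begins 7605 bases downstream, was at 23.5 and 22.0 CPM (log2 ratio -0.09, -0.24 to 0.06), and Rmnd1 and Armt1 beyond it were at 0.13 and 0.18 with intervals that held 0. Upstream, Mthfd1l (1.93 and 2.67 CPM) and Iyd (2 and 0 UMIs) were barely detected, and Plekhg1, which ends 299077 bases before Akap12, was at 35.7 and 49.8 CPM (0.48, 0.37 to 0.59).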

How the data were processed

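Per the file headers and labels, the authors counted UMIs per gene and barcode of each library with Cell Ranger on the mm10 build, and the deposited matrices hold those whole-number counts, unfiltered over 6794880 barcodes (software version 3.1.0 in the header; the study's methods name another version). The gene annotation used is not given in the sources used here; coordinates and neighbours came from GENCODE M21. Totals were 67929614 UMIs in control and 64733724 in the metastatic library.

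Levels are Akap12 UMIs divided by all UMIs of a class, times 1000000 (CPM), with exact Poisson intervals; shares have Clopper-Pearson intervals and ratios the exact interval of a binomial split. PCR, sampling of mice and, for levels, means and ratios, the spread over barcodes are not covered. A gene counted as tested at 100 UMIs or more over both libraries and a mean of 20 CPM or more. Named genes were Akap12, list genes past 2-fold or the highest and lowest of a list, the 10 highest and 5 lowest r per library, the 5 most alike over 8 class points, and 3 coding neighbours on each side; genes in the Akap12-high comparison and Adora2a were added after values were seen. Markers, lists and Akap12 itself were chosen with earlier results of these data known. Doublets were scored with scanpy 1.11.5 and left out only as an alternative (407 and 334 barcodes), TMM factors came from edgeR 4.0.16, and the rest used numpy 2.4.6, scipy 1.17.1 and pandas 2.3.3. Scripts were tested on simulated data. Alternatives covered gene, mitochondrial and depth limits, class rules, shared barcodes, free RNA, scaling and correlation settings. Some genes of the lists are counted but their values are not reported here.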

Additional observations from a re-analysis of the deposited data

Results flagged for a closer look

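The Akap12 log2 ratio of the vein class was -0.1311, while gCap, aerocyte and artery had values above 0 in the main setting. The artery ratio turned below 0 under 3 alternatives (-0.10 at 2000 UMIs per barcode, -0.10 without the 5% highest barcodes and -2.21 with classes called after thinning), and the aerocyte ratio turned to -0.13 with free RNA subtracted. The interval of the vein value held 0, and with 1 library per group the difference between classes was not tested.

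Barcodes left out of the main comparison held Akap12 above the control level as well. Barcodes with 1 to 10 UMIs were at 301.6 CPM in the metastatic library against 141 in control. Those with 51 to 200 UMIs were at 265.8 against 132, and at 332.5 against 148 when barcodes with 10 or more UMIs in the other library were set aside. Those with 201 to 500 UMIs were at 359.5 against 165, while those with 11 to 50 UMIs were at 130 against 126. Barcodes with 50 to 1000 UMIs in both libraries, 23192 in number, were at 61.18 against 26.6, and the 7506 of them with 3 or more melanoma marker UMIs were at 26.8 against 15.3, with overlapping intervals. Barcodes with 300 to 999 genes were at 482 against 177, and those over 5000 genes at 538.6 against 216.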

How the results depend on the processing

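The gCap log2 ratio stayed above 0.7 under all 14 alternatives that gave a value. It was 0.83 without barcodes of 50 or more UMIs in the other library, 1.20 with no marker of another class allowed, 1.08 with the endothelial gate, 0.89 with classes called after thinning and 1.06 as a mean over barcodes. Chosen after seeing the data, it was 1.08 at 2000 UMIs per barcode, 0.73 without the 5% highest barcodes and 1.09 over all endothelial barcodes. For aerocytes the values under the same settings were 0.29 without shared barcodes, 0.40 with classes called after thinning and 0.39 without the 5% highest, and it turned to -0.13 with free RNA subtracted, where the estimated free share of all UMIs was 68.2% in control and 26.1% in the metastatic library. That subtraction gave no value for gCap and vein, because the estimated share passed 100% (137% and 169%). No true share can pass 100%, so the aerocyte estimate is uncertain as well. The artery ratio was 0.11 with the endothelial gate. It turned to -2.21 (-5.41 to -0.05) with classes called after thinning, which left 22 control and 17 metastatic artery barcodes. It was -0.10 at 2000 UMIs and -0.10 without the 5% highest barcodes. The vein ratio was 0.037 as a mean over barcodes. The gCap share difference was 6.72 percentage points at 1000 UMIs. Genes at r of 0.1 or more were 1 in control and 51 in the metastatic library after thinning, and 124 in the metastatic library with Spearman's rho. Of 113 AKAP, partner and cAMP genes, 4 were past 2-fold at 20 UMIs or more (Adora2a, Basp1 and Prkcb higher, Adora2b lower) and 1 with TMM scaling (Myrip, lower), against 0. The causes were not tested. No paired analysis was possible because each group has 1 library, and no library could be left out. In the main setting vein and artery values rest on 558 and 618 and on 116 and 167 Akap12 UMIs, which limits them. At 2000 UMIs per barcode artery held only 32 and 28.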
